A study of Mus musculus with 18 samples.

Results

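The genes of fast and slow inhibitory and excitatory transmission were examined in the dorsal spinal cord: the receptors for GABA, glycine and glutamate, together with 4 genes that make GABA or load the transmitters into vesicles. The members were taken by name alone, from the start of the gene symbol (Gabr and Gabbr for GABA receptors, Glra and Glrb for glycine receptors, Gria, Grin, Grik, Grid and Grm for glutamate receptors) plus Gad1, Gad2, Slc32a1 and Slc17a6. This gave 52 of the 18444 single gene names that all 3 deposited tables share, of which 25 were inhibitory, 26 excitatory and 1, Grin1os, an antisense RNA of Grin1, neither. The 52 names covered 79 entries of the tables, and 36 names had 1 entry. Where a name had several entries, the entry with the highest mean level over the 6 groups was used.

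Dorsal spinal cord segments L3–5 of C57BL/6 mice (C57BL/6N in the study's methods), 3 months old, were profiled by RNA-seq 24 h after an intraplantar injection of saline or of CFA (complete Freund's adjuvant, which inflames the paw). Every mouse, controls included, carried a recombinant adeno-associated virus injected into the spinal cord: rAAV-LacZ as the control vector, rAAV-HDAC4 wt, which carries the wild-type histone deacetylase HDAC4, or rAAV-HDAC4 3SA, which carries a mutant that remains in the nucleus. There were 3 mice in each of the 6 groups (18 in all), and the tables give 1 level per group, the authors' value in FPKM (fragments per kilobase of transcript scaled to the mapped fragments of a library). With 1 value per group there is no spread between mice, so no test, standard deviation or p-value is given for any difference. The study's methods state a minimum number of reads, but the depth behind each value is not given. The study draws LacZ under the CMV promoter and both HDAC4 forms under the synapsin promoter, which is active in neurons, so promoter and transgene cannot be told apart between LacZ and HDAC4, and the tissue held infected and uninfected cells together. Each vector has its own table, so changes are read within a vector, and levels set across vectors are descriptions only.

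GABA and glycine open chloride channels, the GABA-A and glycine receptors, and so hold dorsal horn neurons back, while GABA-B receptors act more slowly through G proteins. Glutamate, released by primary afferents and by excitatory interneurons, acts on AMPA, NMDA and kainate channels and on metabotropic receptors coupled to G proteins. The balance between both sides sets how strongly noxious input is passed on, and the loss of spinal inhibition and the strengthening of NMDA and AMPA receptor signalling are well known in inflammatory pain. HDAC4 is a repressor of transcription that leaves the nucleus when neurons are active.

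For orientation, Hdac4 itself was at 7.41 and 7.72 FPKM with LacZ, 10.1 and 10.8 FPKM with HDAC4 wt, and 8.86 and 8.81 FPKM with HDAC4 3SA after saline and CFA, a level that need not count transcripts of the vector. Neuronal markers had values in all groups: all 12 markers of neurons were detected, and their summed level was 4533 and 4521 FPKM with LacZ after saline and CFA, 3286 and 3104 FPKM with HDAC4 wt, and 3735 and 3309 FPKM with HDAC4 3SA. All 12 markers of dorsal horn neurons also had values, with sums from 327 to 522 FPKM over the 6 groups. Markers of motor neurons, Schwann cells and skeletal muscle were present too. In tissue of mixed cells, fewer cells of a type and less RNA per cell cannot be told apart.

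The receptor genes were nearly level after CFA in LacZ mice and were lower after CFA with HDAC4, most of all with HDAC4 3SA. The change of a gene is given as log2 of the CFA over the saline value with 0.1 FPKM added to both, and is read where the pair averaged 0.5 FPKM or more. The median change of the members was -0.03 with LacZ over 52 genes, -0.15 with HDAC4 wt over 51 genes and -0.31 with HDAC4 3SA over 50 genes. The medians over all genes were 0.01, 0.00 and 0.01. The 12 markers of neurons had medians in the same order, 0.02, -0.09 and -0.24, but single markers went both ways. They ranged from -0.35 to 0.39 with HDAC4 wt and from -0.48 to 0.20 with HDAC4 3SA. Relative to the marker median, the median change of the members with HDAC4 3SA was -0.07 in place of -0.31. The part of the number of neurons in the values of the receptor genes was not tested. The lower values with HDAC4 3SA were shared by inhibitory and excitatory genes.

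With LacZ, 34 of the 52 members were lower after CFA, where 47.3% of all 15307 genes were. None of the 52 lay beyond 0.5 in either direction, against 3.59% of all genes above 0.5 and 2.16% below -0.5. A change below -0.25 was found for 3 members, Gabra3, Glrb and Gabrd, where 5.36% of all genes had one. With the Gabra3 and Glrb entries on the annotated strand, described with these genes, Gabrd alone lay there. Above 0.25 lay 4 members, Gabrr2, Glra4, Grin2c and Grin3b, against 10.2% of all genes.

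With HDAC4 wt, 40 of 51 members were lower after CFA, against 48.7% of all 15963 genes. Of these 51, 1 (Grin3b) was above 0.5 and 1 (Glrb) below -0.5, where 4.89% and 3.13% of all genes were. Below -0.25 lay 11 members, 7 inhibitory and 4 excitatory, against 9.03% of all genes. Grin3b was also the 1 member above 0.25, where 13.1% of all genes were. With entries on the annotated strand no member lay below -0.5 and Grin3b alone lay above 0.5. Relative to the neuron markers, 2 members (Gabrq and Glrb) lay below -0.25, against 5.88% of all genes. That Glrb entry was the one on the opposite strand. Before centring, the annotated-strand entries of Glrb and Gabra3 were at -0.04 and -0.39, beside a neuron marker median of -0.09.

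With HDAC4 3SA, 47 of 50 members were lower after CFA, against 46.8% of all 15908 genes. Below -0.25 lay 34 of the 50, where 12% of all genes did. Relative to the neuron markers, 8 of the 50 lay below -0.25 and 3 above 0.25, counts for which the share over all genes was not computed. Below -0.5 lay 7 of the 50, namely Gad1, Gabra5, Glra4, Glrb, Grin2a, Grin2b and Grm5, beside 3.28% of all genes. Grin3b was the 1 member above 0.5, where 9.18% of all genes were, and also the 1 member above 0.25, where 19.2% were. The 2 members not counted, Gabrd and Gabrr2, averaged under 0.5 FPKM. Relative to the neuron markers, Glra4 and Glrb were the 2 members below -0.5, against 1.41% of all genes, and Gad1 was at -0.27, Gabra5 at -0.30, Grin2a and Grin2b at -0.35 and Grm5 at -0.33. That Glrb entry was the one on the opposite strand. Before centring, the annotated-strand entries of Glrb and Gabra3 were at -0.29 and -0.61, beside a neuron marker median of -0.24. With entries on the annotated strand, Gabra3 joined the genes below -0.5 and Glrb left them. Just inside the limit were Gad1 at -0.51 and Gabra5 at -0.54, and just outside it Glra3 at -0.49 and Gria2 at -0.47.

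Inhibitory genes had a slightly lower median change than excitatory genes in each vector. With LacZ the medians were -0.08 for 25 inhibitory and 0.00 for 26 excitatory genes. With HDAC4 wt they were -0.19 for 24 and -0.12 for 26 genes, and with HDAC4 3SA -0.33 for 23 and -0.29 for 26 genes. The gap between the sides was thus -0.08, -0.07 and -0.05 on the log2 scale, far less than the step from LacZ to HDAC4 3SA within either side. The interquartile range of inhibitory genes was -0.14 to -0.02 with LacZ and -0.43 to -0.21 with HDAC4 3SA, and that of excitatory genes -0.04 to 0.05 and -0.39 to -0.12, so the sides overlapped in every vector.

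**Figure D1:**
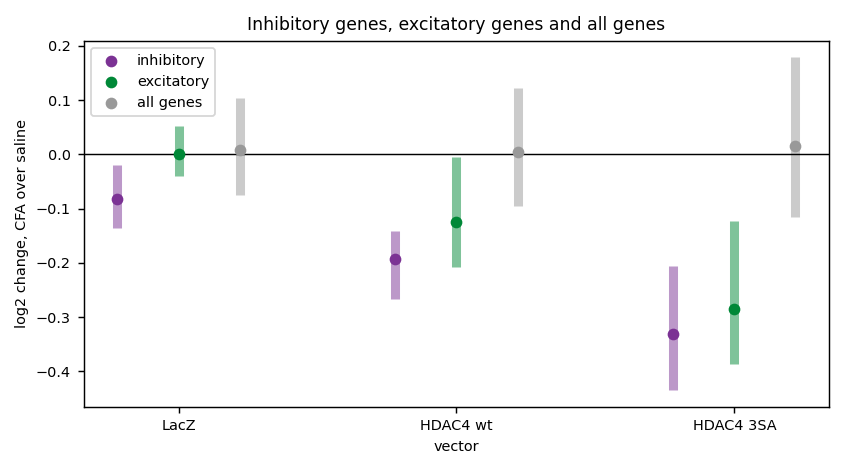
Median (dot) and interquartile range (bar) of the log2 change, CFA over saline, of inhibitory members, excitatory members and all genes whose pair averaged 0.5 FPKM or more, by vector. The inhibitory median moves from -0.08 with LacZ to -0.33 with HDAC4 3SA and the excitatory median from 0.00 to -0.29, while the median of all genes lies between 0.00 and 0.01.

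The enzymes and vesicle transporters mark the transmitter that a neuron uses. The entries used for all 4 of them had lower values after CFA in every vector, where 20.1% of all 14896 genes had. In the values that follow, each pair is saline and then CFA. Gad1, which makes most of the brain's and cord's GABA (entry chr2:70553049-70602029, forward strand), was at 104 and 99.6 FPKM with LacZ, 101 and 80.8 FPKM with HDAC4 wt, and 91.3 and 64.0 FPKM with HDAC4 3SA. Its CFA value was 0.955 times the saline value with LacZ and 0.701 times with HDAC4 3SA, log2 changes of -0.07 with LacZ, -0.32 with HDAC4 wt and -0.51 with HDAC4 3SA. Gad2, the isoform of nerve terminals, was at 41.6 and 39.3 FPKM with LacZ, 33.8 and 30.3 FPKM with HDAC4 wt, and 33.5 and 26.6 FPKM with HDAC4 3SA. Gad2 stepped in the same order, -0.08 with LacZ, -0.15 with HDAC4 wt and -0.33 with HDAC4 3SA. Slc32a1, the vesicular transporter of GABA and glycine and so the common mark of inhibitory terminals, was at 76.0 and 75.4 FPKM with LacZ, 57.0 and 51.1 FPKM with HDAC4 wt, and 61.3 and 50.1 FPKM with HDAC4 3SA. Both LacZ values of Slc32a1 nearly coincided, and its changes were -0.01 with LacZ, -0.16 with HDAC4 wt and -0.29 with HDAC4 3SA. Slc17a6, the vesicular glutamate transporter VGLUT2 of excitatory spinal neurons, was at 80.8 and 76.6 FPKM with LacZ, 61.8 and 52.6 FPKM with HDAC4 wt, and 63.9 and 47.7 FPKM with HDAC4 3SA. In this entry the changes were -0.08 with LacZ, -0.23 with HDAC4 wt and -0.42 with HDAC4 3SA. A further Slc17a6 entry, on the opposite strand by the order of its identifier, was at 29.9 and 39.2 FPKM with LacZ, 22.8 and 13.6 FPKM with HDAC4 wt and 10.7 and 17.0 FPKM with HDAC4 3SA, higher after CFA with LacZ and HDAC4 3SA.

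The direction of the ratio of Slc32a1 to Slc17a6 after CFA depended on which Slc17a6 entries were used. With the entry of highest level, the ratio was 0.941 after saline and 0.983 after CFA with LacZ, 0.923 and 0.972 with HDAC4 wt, and 0.960 and 1.05 with HDAC4 3SA, higher after CFA in each vector. With both entries summed, it was 0.686 and 0.650 with LacZ, 0.675 and 0.772 with HDAC4 wt, and 0.822 and 0.774 with HDAC4 3SA, so that it was higher after CFA with HDAC4 wt only. The ratio of Gad1 to Gad2 was 2.51 and 2.53 with LacZ, 2.99 and 2.67 with HDAC4 wt, and 2.73 and 2.40 with HDAC4 3SA, lower after CFA with both HDAC4 vectors only.

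Gad1 had the lowest change of the 4 transmitter genes with HDAC4 3SA, so its upstream sequence is shown: the 250 bases before the RefSeq start of Gad1, chr2:70561879-70562128, on the forward strand of GRCm38.p6, with capitals marking a TATA box and a GC box, both read here on the reverse strand.
Gad1: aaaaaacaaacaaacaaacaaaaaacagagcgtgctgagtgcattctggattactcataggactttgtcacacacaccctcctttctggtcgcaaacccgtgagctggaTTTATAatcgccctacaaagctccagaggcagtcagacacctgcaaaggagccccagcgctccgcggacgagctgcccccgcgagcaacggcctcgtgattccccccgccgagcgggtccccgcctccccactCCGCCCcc

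GABA-A receptors are pentamers, usually of alpha, beta and gamma subunits, and the alpha subunit sets where the receptor sits and how it responds to benzodiazepines. Gabra2, a main alpha subunit of the superficial dorsal horn, was at 38.9 and 35.3 FPKM with LacZ, 30.9 and 31.2 FPKM with HDAC4 wt, and 33.7 and 30.2 FPKM with HDAC4 3SA. Its HDAC4 wt values were equal to within 0.02 on the log2 scale, and its changes were -0.14 with LacZ, 0.02 with HDAC4 wt and -0.16 with HDAC4 3SA. Gabra4, found in receptors outside synapses, was at 7.40 and 6.98 FPKM with LacZ, 7.44 and 6.30 FPKM with HDAC4 wt, and 6.74 and 5.34 FPKM with HDAC4 3SA. Gabra4 followed the order of the vectors, -0.08 with LacZ, -0.24 with HDAC4 wt and -0.33 with HDAC4 3SA. Gabra5, an extrasynaptic alpha subunit that carries tonic inhibition (entry chr7:57407522-57510208, reverse strand), was at 27.3 and 26.3 FPKM with LacZ, 21.9 and 18.9 FPKM with HDAC4 wt, and 22.3 and 15.3 FPKM with HDAC4 3SA. Its 3SA CFA value was the lowest of the 6, and the changes were -0.06 with LacZ, -0.21 with HDAC4 wt and -0.54 with HDAC4 3SA, the lowest change with HDAC4 3SA among GABA-A genes of at least 5 FPKM.

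Gabra3, another alpha subunit of dorsal horn and brainstem, is described by 2 of its 3 entries. The entry chosen by its level was at 86.7 and 63.2 FPKM with LacZ, 75 and 68.7 FPKM with HDAC4 wt, and 37.8 and 40.4 FPKM with HDAC4 3SA, which gave changes of -0.46 with LacZ, -0.13 with HDAC4 wt and 0.10 with HDAC4 3SA and made it the 1 inhibitory member that was higher after CFA with HDAC4 3SA. By its place among the entries of chromosome X, that entry lay on the forward strand, whereas the annotated gene lies on the reverse strand. The entry on the annotated strand was at 2.59 and 2.54 FPKM with LacZ, 2.70 and 2.04 FPKM with HDAC4 wt, and 2.004 and 1.28 FPKM with HDAC4 3SA. There the changes were -0.03 with LacZ, -0.39 with HDAC4 wt and -0.61 with HDAC4 3SA, lower after CFA in each vector. The tables print no strand, and the side was read from the order of identifiers, which runs through the forward and then the reverse strand of each chromosome and put 11103 of 11198 names with 1 entry (99.2%) on their annotated strand.

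The beta subunits hold the site of GABA together with alpha. Gabrb1 was at 8.80 and 8.32 FPKM with LacZ, 7.21 and 7.43 FPKM with HDAC4 wt, and 7.80 and 7.36 FPKM with HDAC4 3SA. It hardly differed between saline and CFA, -0.08 with LacZ, 0.04 with HDAC4 wt and -0.08 with HDAC4 3SA. Gabrb2 was at 9.79 and 8.65 FPKM with LacZ, 7.14 and 6.07 FPKM with HDAC4 wt, and 8.37 and 6.56 FPKM with HDAC4 3SA. In this entry CFA values were the lower of each pair, -0.18 with LacZ, -0.23 with HDAC4 wt and -0.35 with HDAC4 3SA. A further Gabrb2 entry on the opposite strand was at 6.45 and 5.47 FPKM with LacZ, 2.86 and 4.20 FPKM with HDAC4 wt and 3.30 and 2.85 FPKM with HDAC4 3SA, higher after CFA with HDAC4 wt.

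Among the gamma subunits, Gabrg1 was at 9.83 and 9.26 FPKM with LacZ, 8.47 and 9.06 FPKM with HDAC4 wt, and 9.37 and 8.72 FPKM with HDAC4 3SA. Gabrg1 was lower after CFA with LacZ and HDAC4 3SA and higher with HDAC4 wt, by 0.10 or less on the log2 scale in each. Gabrg3, another gamma subunit, ranged from 2.26 to 3.02 FPKM over the 6 groups, with changes of -0.04 with LacZ, -0.15 with HDAC4 wt and -0.40 with HDAC4 3SA.

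The remaining GABA-A subunits were scarce. Gabrd, the delta subunit of extrasynaptic receptors, was at 0.629 and 0.502 FPKM with LacZ, 0.606 and 0.518 FPKM with HDAC4 wt, and 0.432 and 0.170 FPKM with HDAC4 3SA, under the minimum of 0.5 FPKM with HDAC4 3SA, where the mean was 0.301 FPKM. Gabrq, the theta subunit, was at 2.99 and 3.28 FPKM with LacZ, 3.51 and 2.69 FPKM with HDAC4 wt, and 3.52 and 2.54 FPKM with HDAC4 3SA. It was higher after CFA with LacZ and lower with both HDAC4 vectors, 0.13 with LacZ, -0.37 with HDAC4 wt and -0.46 with HDAC4 3SA. Gabrr2, a rho subunit, was at 0.486 and 0.691 FPKM with LacZ, 0.377 and 0.459 FPKM with HDAC4 wt, and 0.373 and 0.332 FPKM with HDAC4 3SA, and its change of 0.43 with LacZ was among the 3 highest there but stood for a difference of 0.205 FPKM. Gabre, the epsilon subunit, ranged from 1.002 to 1.27 FPKM, with changes of 0.25 with LacZ, 0.04 with HDAC4 wt and -0.12 with HDAC4 3SA. No single-name entry stood for Gabra6, Gabrp, Gabrr1 or Gabrr3.

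The promoter window of Gabrb2 is shown because HDAC4 is known to bind transcription factors of the MEF2 family, and Gabrb2 was 1 of 2 members with the letters of a MEF2 site there. The 250 bases lie at chr11:42420190-42420439, forward strand of GRCm38.p6, before 1 of the 3 starts that RefSeq gives for Gabrb2. Capitals mark a GC box, read on the reverse strand, and the MEF2 site, inside which the letters of the TATA box lie.
Gabrb2: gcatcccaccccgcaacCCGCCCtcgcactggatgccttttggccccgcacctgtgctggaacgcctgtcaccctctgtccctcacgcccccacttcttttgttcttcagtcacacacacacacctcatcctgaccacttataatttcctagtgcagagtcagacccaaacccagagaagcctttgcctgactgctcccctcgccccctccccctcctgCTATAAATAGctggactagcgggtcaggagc

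Many GABA-A genes lie in clusters, and the 2 clusters whose genes are all reported singly are given. On the X chromosome between 72255999 and 72842602 (GRCm38, GENCODE M21), Gabra3 on its annotated strand, Gabre and Gabrq had a median change of 0.13 with LacZ, -0.37 with HDAC4 wt and -0.46 with HDAC4 3SA, where they ranged from -0.61 to -0.12. Gabra2, Gabra4, Gabrb1 and Gabrg1, on chromosome 5 between 70751047 and 72149037, had medians of -0.08, 0.03 and -0.13 and ranged from -0.33 to -0.08 with HDAC4 3SA.

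GABA-B receptors pair Gabbr1, which binds GABA, with Gabbr2, which couples to the G protein. Gabbr1 was at 151 and 158 FPKM with LacZ, 142 and 131 FPKM with HDAC4 wt, and 149 and 136 FPKM with HDAC4 3SA, the highest level of any member whose entry lay on its annotated strand. It was higher after CFA with LacZ and lower with both HDAC4 vectors, 0.07 with LacZ, -0.11 with HDAC4 wt and -0.14 with HDAC4 3SA. Gabbr2 was at 38.7 and 38.2 FPKM with LacZ, 31.0 and 27.8 FPKM with HDAC4 wt, and 33.2 and 25.7 FPKM with HDAC4 3SA. Gabbr2 was at one level in both LacZ groups and lower after CFA with HDAC4, -0.02 with LacZ, -0.15 with HDAC4 wt and -0.37 with HDAC4 3SA. The ratio of Gabbr1 to Gabbr2 was 3.89 and 4.14 with LacZ, 4.58 and 4.70 with HDAC4 wt, and 4.49 and 5.27 with HDAC4 3SA after saline and CFA.

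Glycine receptors combine alpha subunits with the beta subunit Glrb, which ties them to the scaffold protein gephyrin. Glra1, the main alpha subunit of the adult cord (entry chr11:55504868-55608739, reverse strand), was at 65.3 and 59.8 FPKM with LacZ, 48.6 and 39.8 FPKM with HDAC4 wt, and 57.8 and 43.6 FPKM with HDAC4 3SA. Each CFA value was below its saline value, -0.13 with LacZ, -0.29 with HDAC4 wt and -0.41 with HDAC4 3SA. A further Glra1 entry on the opposite strand was nearly as high with LacZ, at 61.1 and 55.7 FPKM, and was at 25.6 and 37.1 FPKM with HDAC4 wt and 25.9 and 23.0 FPKM with HDAC4 3SA. Glra2, the subunit known from the fetal cord, was at 7.85 and 7.39 FPKM with LacZ, 7.15 and 5.95 FPKM with HDAC4 wt, and 7.02 and 5.67 FPKM with HDAC4 3SA. Its changes were -0.09 with LacZ, -0.26 with HDAC4 wt and -0.30 with HDAC4 3SA. Glra3, which lies in the superficial dorsal horn and is the target of prostaglandin signalling in inflammatory pain, was at 8.41 and 8.20 FPKM with LacZ, 8.72 and 7.19 FPKM with HDAC4 wt, and 8.43 and 5.96 FPKM with HDAC4 3SA. Its 3SA CFA value was the lowest of the 6, and its changes were -0.04 with LacZ, -0.28 with HDAC4 wt and -0.49 with HDAC4 3SA. Glra4 was at 0.611 and 0.870 FPKM with LacZ, 1.03 and 0.831 FPKM with HDAC4 wt, and 0.969 and 0.469 FPKM with HDAC4 3SA. At this low level it was higher after CFA with LacZ and lower with both HDAC4 vectors, 0.45 with LacZ, -0.28 with HDAC4 wt and -0.91 with HDAC4 3SA.

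Glrb, like Gabra3, had its highest entry on the strand opposite to the gene. That entry (GRCm38 chr3:80842483-80913749) was at 304 and 224 FPKM with LacZ, 294 and 190.1 FPKM with HDAC4 wt, and 151 and 73.4 FPKM with HDAC4 3SA, above all other members except in the HDAC4 3SA CFA group, and had the lowest changes of any member with both HDAC4 vectors, -0.44 with LacZ, -0.63 with HDAC4 wt and -1.04 with HDAC4 3SA. The entry on the annotated strand was at 102 and 93.8 FPKM with LacZ, 70.1 and 68.3 FPKM with HDAC4 wt, and 78.5 and 64.2 FPKM with HDAC4 3SA. On that strand the changes were -0.12 with LacZ, -0.04 with HDAC4 wt and -0.29 with HDAC4 3SA, within the range of the other glycine receptor genes with LacZ and above all of them with both HDAC4 vectors. The summed alpha subunits were 0.807 and 0.813 times that Glrb entry with LacZ, 0.933 and 0.787 times with HDAC4 wt, and 0.945 and 0.867 times with HDAC4 3SA. Against the Glrb entry on the opposite strand they were 0.271 and 0.340 times with LacZ, 0.223 and 0.283 times with HDAC4 wt, and 0.492 and 0.758 times with HDAC4 3SA. The direction after CFA with both HDAC4 vectors thus depended on the Glrb entry. With either Glrb entry and with the Glra1 entry on the annotated strand, the 5 glycine receptor genes were all lower after CFA with both HDAC4 vectors. Of all genes, 48.7% were lower after CFA with HDAC4 wt and 46.8% with HDAC4 3SA. The further Glra1 entry was higher after CFA with HDAC4 wt.

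**Figure D2:**
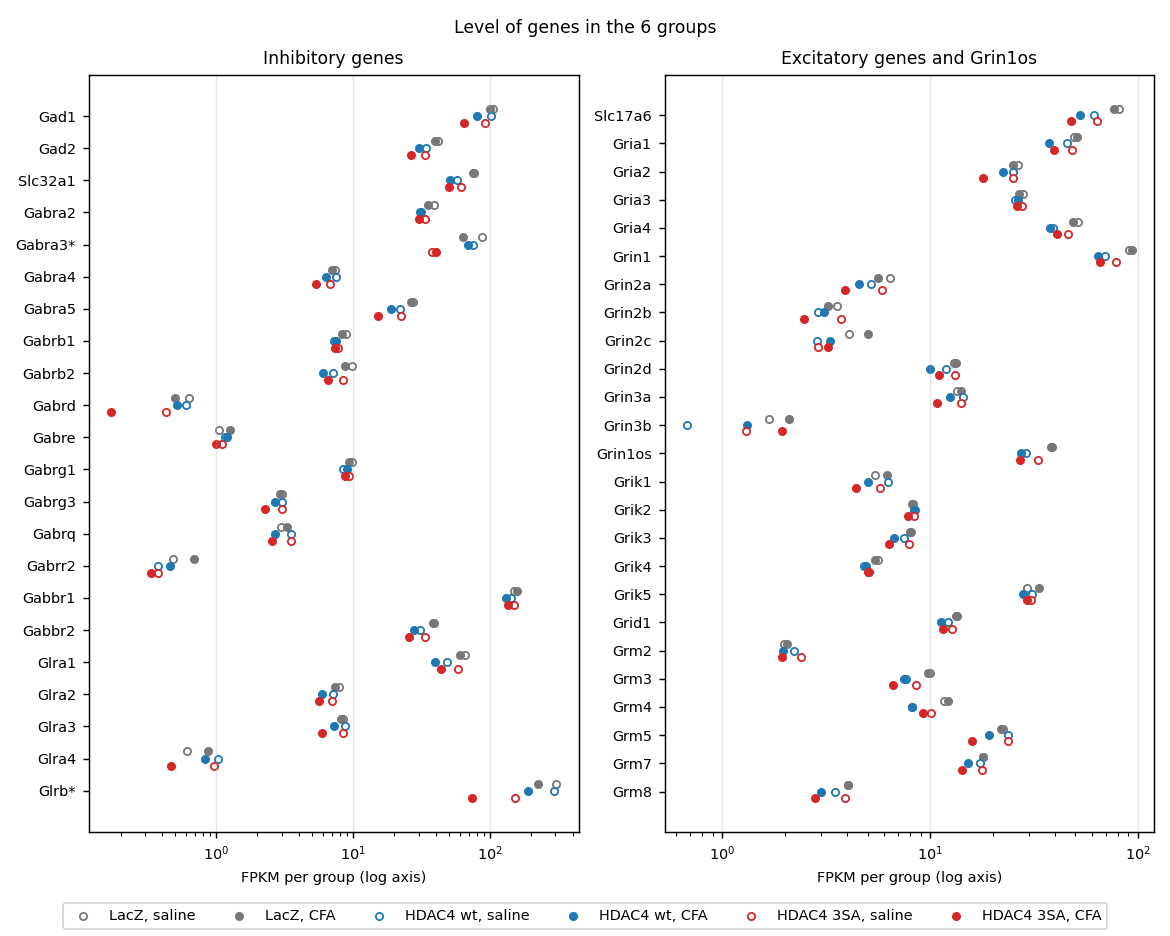
FPKM of the members reported singly, on a log axis, with hollow points for the saline groups and filled points for the CFA groups. An asterisk marks Gabra3 and Glrb, whose entries lie on the strand opposite to the annotated gene; the HDAC4 3SA CFA point lies left of its saline point for every inhibitory gene drawn except Gabra3.

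AMPA receptors carry most fast excitation, and the Gria2 subunit keeps calcium out of the channel. Gria1 was at 49.6 and 51.0 FPKM with LacZ, 45.4 and 37.4 FPKM with HDAC4 wt, and 48.2 and 39.4 FPKM with HDAC4 3SA. It was slightly higher after CFA with LacZ and lower by nearly equal amounts with both HDAC4 vectors, 0.04 with LacZ, -0.28 with HDAC4 wt and -0.29 with HDAC4 3SA. Gria2 was at 26.4 and 25.1 FPKM with LacZ, 25.2 and 22.5 FPKM with HDAC4 wt, and 24.9974 and 18.0 FPKM with HDAC4 3SA. It had the lowest change of the family with HDAC4 3SA, -0.07 with LacZ, -0.16 with HDAC4 wt and -0.47 with HDAC4 3SA. Gria3 was at 28.1 and 26.7 FPKM with LacZ, 25.8 and 26.4 FPKM with HDAC4 wt, and 27.7 and 26.3 FPKM with HDAC4 3SA. Gria3 differed by 0.07 or less on the log2 scale in every vector. Gria4 was at 51.4 and 48.9 FPKM with LacZ, 39.1 and 37.8 FPKM with HDAC4 wt, and 46.4 and 40.7 FPKM with HDAC4 3SA. Its changes were -0.07 with LacZ, -0.05 with HDAC4 wt and -0.19 with HDAC4 3SA, so it lay between Gria3 and Gria1 with HDAC4 3SA. The share of Gria2 in the summed AMPA subunits was 17.0 and 16.6% with LacZ, 18.6 and 18.1% with HDAC4 wt, and 17.0 and 14.5% with HDAC4 3SA after saline and CFA.

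NMDA receptors need Grin1 and combine it with Grin2 subunits, which bind glutamate, or Grin3 subunits, which bind glycine. Grin1 (entry chr2:25291137-25319187, reverse strand) was at 91.1 and 94.0 FPKM with LacZ, 69.7 and 64.6 FPKM with HDAC4 wt, and 78.3 and 65.6 FPKM with HDAC4 3SA. It was higher after CFA with LacZ and lower with both HDAC4 vectors, 0.05 with LacZ, -0.11 with HDAC4 wt and -0.26 with HDAC4 3SA. Grin1os, transcribed from the other strand of the same stretch, was at 38.7 and 38.4 FPKM with LacZ, 29.1 and 27.4 FPKM with HDAC4 wt, and 33.3 and 27.1 FPKM with HDAC4 3SA. It kept a steady proportion to Grin1, 0.409 to 0.425 over the 6 groups, and its changes were -0.01 with LacZ, -0.09 with HDAC4 wt and -0.30 with HDAC4 3SA. Libraries were strand-specific per the study's methods, but what part reads of one strand had in the level of the other was not tested.

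The Grin2 subunits set how long the channel stays open. Grin2a was at 6.42 and 5.59 FPKM with LacZ, 5.22 and 4.54 FPKM with HDAC4 wt, and 5.90 and 3.88 FPKM with HDAC4 3SA. It was lower after CFA in each vector and had the lowest change of all excitatory genes with HDAC4 3SA, -0.20 with LacZ, -0.20 with HDAC4 wt and -0.59 with HDAC4 3SA. Grin2b, a subunit whose channels close slowly, was at 3.58 and 3.21 FPKM with LacZ, 2.90 and 3.07 FPKM with HDAC4 wt, and 3.74 and 2.46 FPKM with HDAC4 3SA. It was lower after CFA with LacZ and HDAC4 3SA and slightly higher with HDAC4 wt, -0.15 with LacZ, 0.08 with HDAC4 wt and -0.59 with HDAC4 3SA. Grin2c was at 4.06 and 5.04 FPKM with LacZ, 2.87 and 3.28 FPKM with HDAC4 wt, and 2.90 and 3.21 FPKM with HDAC4 3SA. It was 1 of 2 members, with Grin3b, that were higher after CFA in all 3 vectors, 0.31 with LacZ, 0.19 with HDAC4 wt and 0.14 with HDAC4 3SA. Grin2d, the most abundant of the 4 here, was at 13.0 and 13.3 FPKM with LacZ, 11.96 and 10.02 FPKM with HDAC4 wt, and 13.1 and 11.0002 FPKM with HDAC4 3SA. Its changes were 0.04 with LacZ, -0.25 with HDAC4 wt and -0.26 with HDAC4 3SA.

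Of the Grin3 subunits, Grin3a was at 13.6 and 14.1 FPKM with LacZ, 14.4 and 12.4 FPKM with HDAC4 wt, and 14.1 and 10.7 FPKM with HDAC4 3SA. It was a little higher after CFA with LacZ and lower with HDAC4, 0.05 with LacZ, -0.21 with HDAC4 wt and -0.39 with HDAC4 3SA. Grin3b, known mainly from motor neurons, was at 1.67 and 2.08 FPKM with LacZ, 0.674 and 1.32 FPKM with HDAC4 wt, and 1.30 and 1.93 FPKM with HDAC4 3SA. It was higher after CFA in every vector, 0.30 with LacZ, 0.87 with HDAC4 wt and 0.53 with HDAC4 3SA, and lay farthest above 0 of all members with HDAC4 wt and HDAC4 3SA. Markers of motor neurons were higher too: all 6 had entries, their summed level was 48.6 and 62.4 FPKM with LacZ, 21.3 and 50.3 FPKM with HDAC4 wt, and 35.8 and 88.1 FPKM with HDAC4 3SA, and none was lower after CFA among those of at least 0.5 FPKM. Chat, the enzyme that makes acetylcholine, was at 4.57 and 5.97 FPKM with LacZ, 2.25 and 5.09 FPKM with HDAC4 wt, and 4.45 and 11.05 FPKM with HDAC4 3SA. The part of motor neurons in the values of Grin3b was not tested.

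Grin3b, the member with the highest change with both HDAC4 vectors, is shown with the 250 bases before its RefSeq start at chr10:79970474-79970723, forward strand of GRCm38.p6, with a TATA box in capitals.
Grin3b: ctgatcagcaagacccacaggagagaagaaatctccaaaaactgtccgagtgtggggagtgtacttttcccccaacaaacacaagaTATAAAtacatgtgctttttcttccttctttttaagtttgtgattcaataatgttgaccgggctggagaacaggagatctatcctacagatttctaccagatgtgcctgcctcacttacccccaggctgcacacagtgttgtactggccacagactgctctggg

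Kainate receptors modulate release and excitation. Grik1, the subunit of small primary afferents and some dorsal horn neurons, was at 5.43 and 6.22 FPKM with LacZ, 6.30 and 5.04 FPKM with HDAC4 wt, and 5.73 and 4.38 FPKM with HDAC4 3SA. It was higher after CFA with LacZ and lower with HDAC4, 0.19 with LacZ, -0.32 with HDAC4 wt and -0.38 with HDAC4 3SA. Grik2 was at 8.18 and 8.30 FPKM with LacZ, 8.51 and 8.33 FPKM with HDAC4 wt, and 8.33 and 7.85 FPKM with HDAC4 3SA. Its pairs lay within 0.08 of each other on the log2 scale. Grik3 was at 8.11 and 7.99 FPKM with LacZ, 7.45 and 6.73 FPKM with HDAC4 wt, and 7.90 and 6.37 FPKM with HDAC4 3SA. It was at one level with LacZ and lower after CFA with HDAC4, -0.02 with LacZ, -0.15 with HDAC4 wt and -0.31 with HDAC4 3SA. Grik4 was at 5.60 and 5.43 FPKM with LacZ, 4.81 and 4.93 FPKM with HDAC4 wt, and 5.09 and 5.04 FPKM with HDAC4 3SA. It differed by 0.04 or less in every vector. Grik5, which with Grik4 forms channels only together with the other subunits, was the most abundant kainate gene and was at 29.5 and 33.6 FPKM with LacZ, 30.9 and 28.2 FPKM with HDAC4 wt, and 30.6 and 29.4 FPKM with HDAC4 3SA. Its changes were 0.19 with LacZ, -0.13 with HDAC4 wt and -0.06 with HDAC4 3SA, and it was the 1 excitatory gene whose change was higher with HDAC4 3SA than with HDAC4 wt.

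The delta receptors bind cerebellins and organise synapses rather than carry much current. Grid1 was at 13.4 and 13.3 FPKM with LacZ, 12.2 and 11.3 FPKM with HDAC4 wt, and 12.8 and 11.6 FPKM with HDAC4 3SA. Its changes were -0.01 with LacZ, -0.12 with HDAC4 wt and -0.14 with HDAC4 3SA.

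The metabotropic receptors fall into excitatory group I, to which Grm5 belongs, and into groups II (Grm2 and Grm3) and III (Grm4, Grm7 and Grm8), which mostly dampen release; all were counted here as excitatory because glutamate is their ligand. Grm5 (entry chr7:87584054-88135965, forward strand) was at 22.4 and 22.1 FPKM with LacZ, 23.8 and 19.3 FPKM with HDAC4 wt, and 23.6 and 15.9 FPKM with HDAC4 3SA. Its saline values lay close together in the 3 vectors, while its CFA values stepped down from LacZ to HDAC4 3SA, -0.02 with LacZ, -0.30 with HDAC4 wt and -0.57 with HDAC4 3SA. Grm3 was at 9.95 and 9.74 FPKM with LacZ, 7.68 and 7.46 FPKM with HDAC4 wt, and 8.54 and 6.63 FPKM with HDAC4 3SA. Its changes were -0.03 with LacZ, -0.04 with HDAC4 wt and -0.36 with HDAC4 3SA. Grm4 was at 11.7 and 12.3 FPKM with LacZ, 8.16 and 8.18 FPKM with HDAC4 wt, and 10.1 and 9.24 FPKM with HDAC4 3SA. Its changes were 0.07 with LacZ, 0.00 with HDAC4 wt and -0.13 with HDAC4 3SA, the closest to 0 of the family with HDAC4 3SA. Grm7 was at 18.0 and 18.1 FPKM with LacZ, 17.4 and 15.3 FPKM with HDAC4 wt, and 17.8 and 14.3 FPKM with HDAC4 3SA. It was level with LacZ and lower after CFA with HDAC4, 0.01 with LacZ, -0.19 with HDAC4 wt and -0.32 with HDAC4 3SA. Grm2 ranged from 1.94 to 2.38 FPKM and had changes of 0.05 with LacZ, -0.17 with HDAC4 wt and -0.28 with HDAC4 3SA. Grm8 ranged from 2.78 to 4.04 FPKM and had changes of -0.01 with LacZ, -0.22 with HDAC4 wt and -0.47 with HDAC4 3SA. No single-name entry stood for Grm6. All 7 metabotropic genes were lower after CFA with HDAC4 3SA, with a median of -0.34, against 6 of 7 and a median of -0.17 with HDAC4 wt and 4 of 7 and a median of -0.01 with LacZ, where 46.8%, 48.7% and 47.3% of all genes were lower after CFA with HDAC4 3SA, HDAC4 wt and LacZ.

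Taken by family, the medians with HDAC4 3SA were lowest for the glycine receptor genes and closest to 0 for the kainate genes. For the 5 glycine receptor genes the median was -0.09 with LacZ, -0.28 with HDAC4 wt and -0.49 with HDAC4 3SA. With Glrb taken on its annotated strand (-0.29 with HDAC4 3SA), the middle value there was that of Glra1, -0.41. For the 4 transmitter genes the median was -0.07, -0.19 and -0.37 in the same order of vectors. For the GABA-A genes it was -0.08 over 15 genes, -0.17 over 14 and -0.32 over 13. For the 4 AMPA genes it was -0.07, -0.11 and -0.24, and for the 7 NMDA genes 0.05, -0.11 and -0.26. For the 5 kainate genes it was 0.02, -0.13 and -0.08. The plot of each gene's change by vector shows this spread gene by gene.

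**Figure D3:**
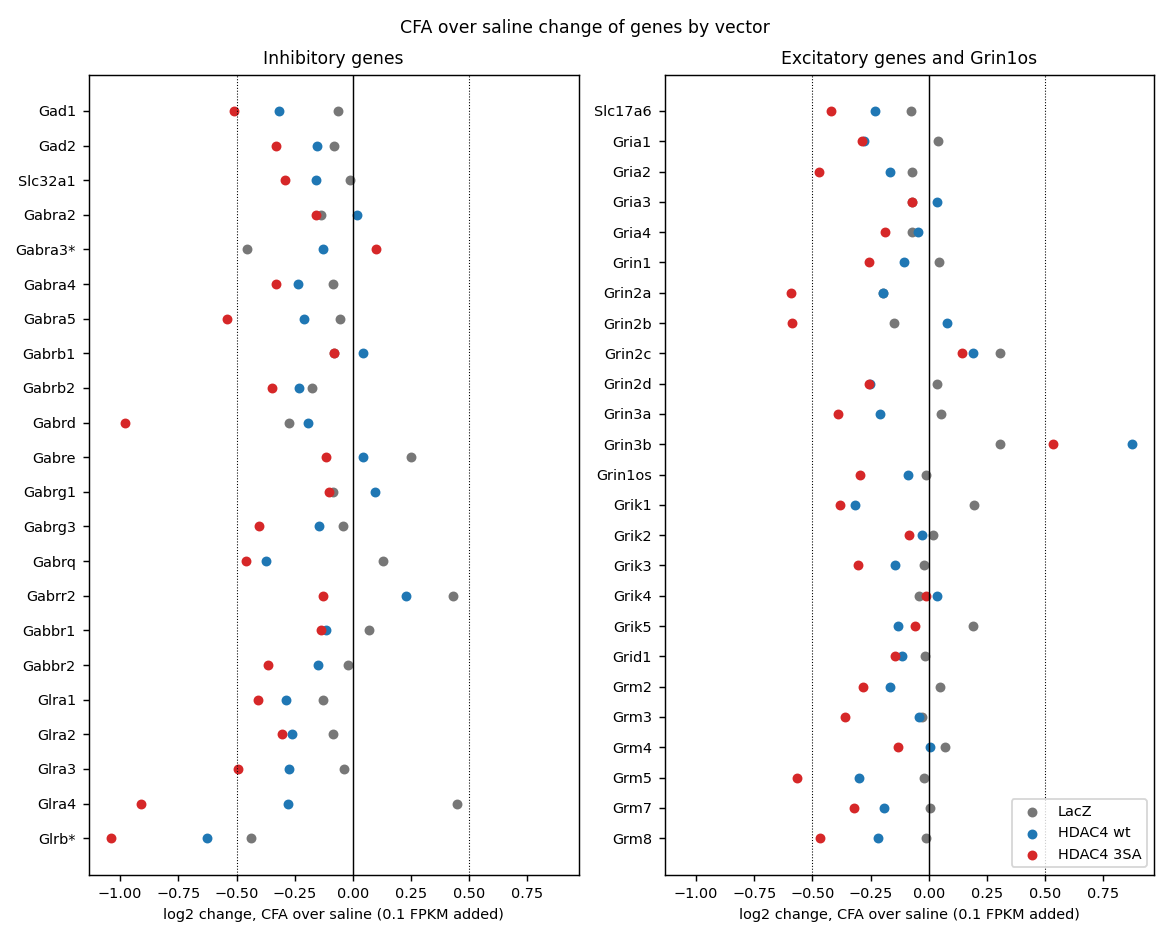
Log2 change, CFA over saline with 0.1 FPKM added, of the members reported singly in the 3 vectors, with dotted lines at -0.5 and 0.5 and an asterisk where the entry lies on the strand opposite to the annotated gene. No LacZ point lies beyond the dotted lines; Glrb at -1.04 is the lowest HDAC4 3SA point and Grin3b at 0.53 the highest.

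Among the glycine alpha, AMPA, Grin2 and kainate subunits, the share of a subunit in its class differed between saline and CFA by at most 4.34 percentage points. Glra1 made up 74.0 to 79.5% of the glycine alpha subunits in the 6 groups. In the Grin2 subunits, Grin2a held 23.7 and 20.6% with LacZ, 22.7 and 21.7% with HDAC4 wt, and 23.0 and 18.9% with HDAC4 3SA, and the share of Grin2c was higher after CFA by 3.55, 3.21 and 4.34 percentage points in the 3 vectors. Grik5 made up 51.9 to 55.4% of the kainate subunits.

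**Figure D4:**
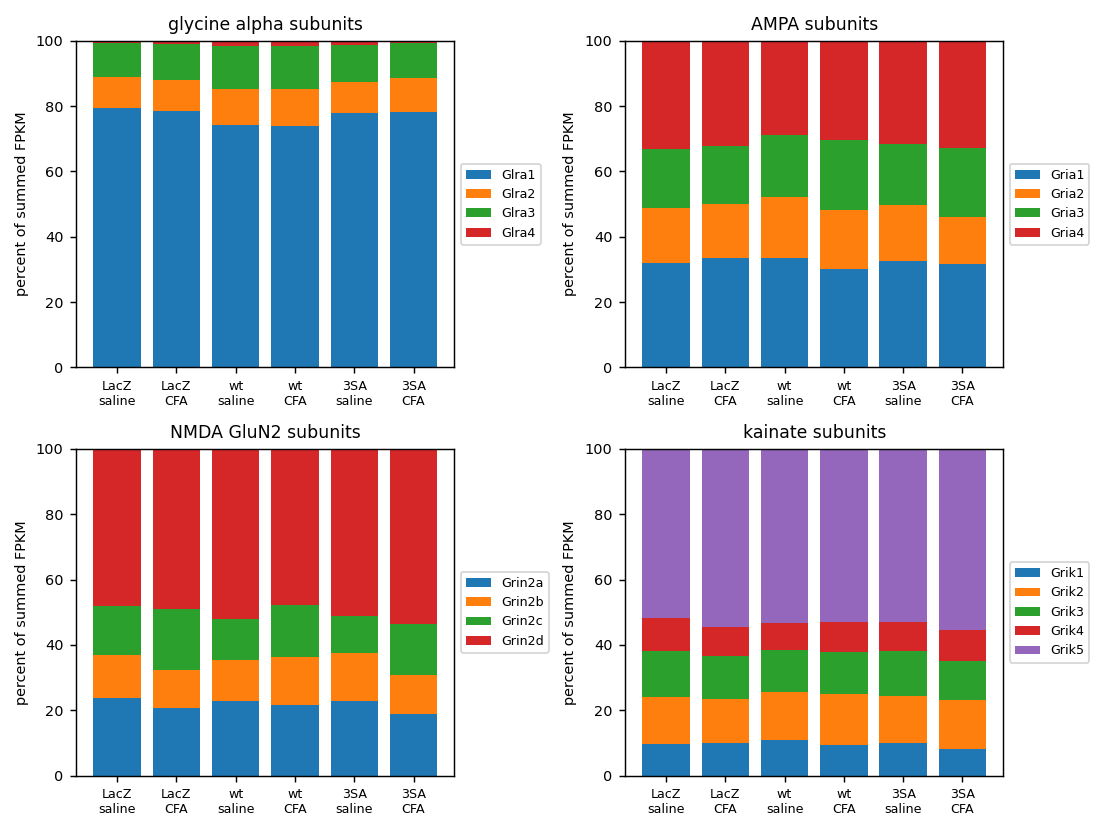
Percent of each subunit in the summed FPKM of its class (glycine alpha, AMPA, NMDA Grin2 and kainate subunits) in the 6 groups. The Gria2 share is 14.5% in the HDAC4 3SA CFA group against 16.6 to 18.6% in the other groups, and Glra1 makes up 74.0 to 79.5% of the glycine alpha subunits throughout.

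The summed level of inhibitory receptors over that of excitatory receptors depended on which Glrb and Gabra3 entries were used. With the entries of highest level, the ratio of 22 inhibitory to 25 excitatory receptor genes was 1.93 after saline and 1.65 after CFA with LacZ, 1.98 and 1.74 with HDAC4 wt, and 1.48 and 1.34 with HDAC4 3SA, log2 differences of -0.23, -0.18 and -0.14. With entries on the annotated strand it was 1.29 and 1.22 with LacZ, 1.21 and 1.21 with HDAC4 wt, and 1.22 and 1.20 with HDAC4 3SA. Without the most abundant gene of each side, Glrb and Grin1, it was 1.57 and 1.45, 1.49 and 1.47, and 1.38 and 1.39, the last pair higher after CFA. That pair held the Gabra3 entry on the opposite strand, and with Gabra3 on its annotated strand the values without Glrb and Grin1 were 1.33 and 1.28 with LacZ, 1.26 and 1.24 with HDAC4 wt, and 1.27 and 1.26 with HDAC4 3SA, lower after CFA in each vector. With all entries of a name summed they were 1.74 and 1.62, 1.57 and 1.61, and 1.44 and 1.46, higher after CFA with both HDAC4 vectors.

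The vectors were also read side by side over the 50 members that averaged 0.5 FPKM or more in all 3 pairs, which share no mice. The change was lower with HDAC4 3SA than with LacZ for 46 of the 50, where 49.8% of all 14896 genes had that order, and the other 4 were Gabra3, Gria3, Grik4 and Grin3b. It was lower with HDAC4 wt than with LacZ for 40 members, against 51.6% of all genes. It was lower with HDAC4 3SA than with HDAC4 wt for 48 members, all but Gabra3 and Grik5, against 48.9% of all genes. The full order, LacZ highest and HDAC4 3SA lowest, held for 39 of 50 members and for 21.2% of all genes. Among the inhibitory members 18 of 23 had this order, and among the excitatory members 20 of 26. The median of the neuron markers had it too, at 0.02 with LacZ, -0.09 with HDAC4 wt and -0.24 with HDAC4 3SA. The counts of this paragraph were not taken relative to these markers.

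The median difference in change was -0.29 for HDAC4 3SA against LacZ, -0.13 for HDAC4 wt against LacZ and -0.15 for HDAC4 3SA against HDAC4 wt. In all 3 vectors 26 members were lower after CFA, 15 of 23 inhibitory and 10 of 26 excitatory genes and Grin1os, where 20.1% of all genes were. Grin2c and Grin3b were higher in all 3, against 23.8% of all genes. Over the 50 members the changes with HDAC4 wt and with HDAC4 3SA had a Pearson correlation of 0.79 and a Spearman correlation of 0.71, those with LacZ and HDAC4 wt 0.37 and 0.14, and those with LacZ and HDAC4 3SA 0.25 and 0.25. These are correlations across genes, which are not independent replicates, and over all 14896 genes the values were 0.34 and 0.52, 0.03 and 0.18, and 0.02 and 0.24 in the same order. With member entries on the annotated strand they were 0.79 and 0.71, 0.28 and 0.07, and 0.24 and 0.25.

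Other genes of the same synapses were read as lists. The 12 inhibitory synapse partners with an entry, such as Gphn (gephyrin) and Nlgn2, a neuroligin, had medians of -0.02 with LacZ, -0.10 with HDAC4 wt and -0.20 with HDAC4 3SA. Lower after CFA were 7, 10 and 11 of the 12 partners, where 47.3%, 48.7% and 46.8% of all genes were. None was beyond 0.5. Iqsec3, a guanine nucleotide exchange factor of inhibitory synapses, was at 47.9 and 37.9 FPKM with HDAC4 3SA, a change of -0.34. The 12 genes of GABA and glycine supply and uptake had medians of -0.01, -0.02 and -0.16, with none beyond 0.5. Slc6a5, the glycine transporter of glycinergic terminals, was at 67.7 and 52.7 FPKM with HDAC4 3SA (-0.36), and Slc12a5, the chloride exporter KCC2 on which inhibition depends, at 123.25 and 97.7 FPKM (-0.34).

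The 32 excitatory synapse partners had medians of 0.03 with LacZ, -0.19 with HDAC4 wt and -0.23 with HDAC4 3SA. Lower after CFA were 13, 25 and 27 of the 32, where 47.3%, 48.7% and 46.8% of all genes were. The 1 beyond 0.5 was Cnih3, an auxiliary subunit of AMPA receptors, at 2.09 and 1.44 FPKM with HDAC4 3SA (-0.51). Camk2a, a kinase of excitatory synapses, was at 73.4 and 54.1 FPKM there (-0.44). With LacZ, Homer1, a scaffold of metabotropic receptors, was at 8.86 and 10.9 FPKM (0.29). The 14 genes of glutamate supply and uptake of at least 0.5 FPKM, which include glial transporters and glutamine synthetase, had medians of -0.04, 0.01 and -0.06. Of the 14 genes 9, 7 and 11 were lower after CFA, against the same 47.3%, 48.7% and 46.8% of all genes.

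Neuronal markers had lower medians in the vectors where the receptor genes did. Of the 12 markers of neurons, 5 were lower after CFA with LacZ and 8 with each HDAC4 vector, where 47.3% (LacZ), 48.7% (HDAC4 wt) and 46.8% (HDAC4 3SA) of all genes were. The 12 markers of dorsal horn neurons had medians of 0.26 with LacZ, -0.28 with HDAC4 wt and -0.32 with HDAC4 3SA, with summed levels of 433 and 522 FPKM with LacZ, 475 and 425 FPKM with HDAC4 wt, and 401 and 327 FPKM with HDAC4 3SA.

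Markers of glia had medians above 0 in each vector. The 8 astrocyte markers had medians of 0.06, 0.22 and 0.19, and the 8 microglia markers 0.12, 0.27 and 0.71. The summed microglia markers were at 165 and 185 FPKM with LacZ, 846 and 1067 FPKM with HDAC4 wt, and 642 and 1170 FPKM with HDAC4 3SA. C1qa, a complement gene of microglia, was at 254 and 500.0 FPKM with HDAC4 3SA. The oligodendrocyte markers had medians of 0.03, 0.19 and 0.12, and the precursor markers 0.14, 0.26 and 0.30.

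Markers from outside the grey matter differed between the groups as well. The 6 Schwann cell markers with an entry had medians of 0.61, -0.03 and -0.63, and their sum was 1237 and 1782 FPKM with LacZ, 1231 and 1249 FPKM with HDAC4 wt, and 1609 and 1092 FPKM with HDAC4 3SA. The skeletal muscle markers had medians of 1.04, -1.71 and -0.41, at sums from 2.66 to 57.5 FPKM. Endothelial markers had medians of 0.09, 0.16 and 0.25, and those of meningeal fibroblasts 0.44, 0.22 and 0.12. Of the dorsal root ganglion markers 4 of 8 had an entry, summing to 17.0 and 21.8 FPKM with LacZ, 23.4 and 44.3 FPKM with HDAC4 wt, and 24.9 and 29.9 FPKM with HDAC4 3SA. The part of these tissues in the values of the members was not tested.

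**Figure D5:**
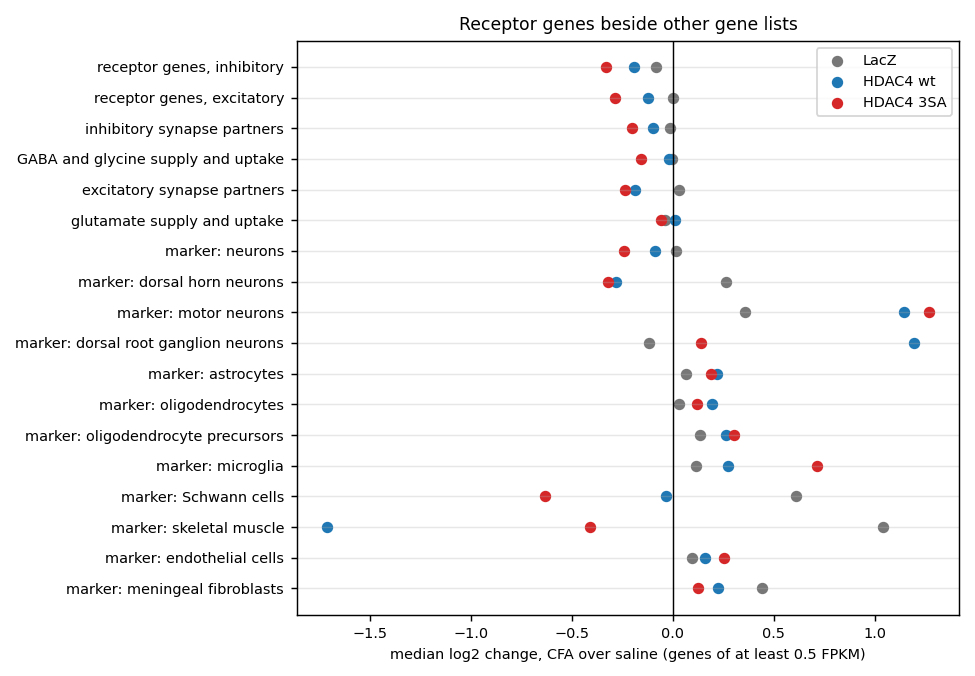
Median log2 change, CFA over saline, of the inhibitory and excitatory receptor genes and of 16 other gene lists, by vector. Both receptor lists, both synapse partner lists and the neuron and dorsal horn markers lie left of 0 with HDAC4 3SA, from -0.20 to -0.33. Schwann cell (-0.63) and skeletal muscle (-0.41) markers lie farther left, while motor neuron (1.27) and microglia (0.71) markers lie right of 0.

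Promoter letters were searched in the 250 bases before the start of the 36 members that the RefSeq table of GRCm38.p6 lists, on both strands. A GC box (GGGCGG) stood in 21 of 36 members (58.3%), among them Gad1, Slc17a6, Gabbr1, Gabbr2, Glrb and Gabrb2, and in 35.4% of all 27025 genes. A TATA box (TATAAA) stood in 5 (13.9%), namely Gabra3, Gabrb2, Gad1, Glra2 and Grin3b, against 14.3% of all genes. The core of a CRE, the site of CREB (TGACG), stood in 5 (13.9%), namely Gad2, Grin1, Grin1os, Grm8 and Slc17a6, against 19.8%. A MEF2 site stood in 2 (5.56%), Gabrb2 and Gabrg1, against 3.42%. Gabrb2 and Gabrg1 had changes of -0.35 and -0.10 with HDAC4 3SA. A match describes letters only.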

How the data were processed

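Dorsal spinal RNA of 18 mice in 6 groups of 3 was analysed. Per the study's methods, the authors made strand-specific libraries from poly-A RNA, sequenced single-end reads, aligned them to GRCm38 with TopHat and Bowtie (the submitters' notes name the same tools), and used Cufflinks and Cuffdiff with an Ensembl annotation. They deposited 3 tables, 1 per vector, each with 34579 loci. The deposited FPKM is the authors' value per group, 1 for saline and 1 for CFA, estimated over the 3 mice and not given per mouse. The study's methods state a minimum number of reads, but the depth behind each value is not given. The other columns hold the authors' log2 fold change, test statistic, p-value, q-value and status of the same comparison and were not used.

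Entries were matched by identifier, and those with the same single gene name in all tables were kept. Log2 changes were computed as log2((CFA + 0.1)/(saline + 0.1)) where the pair had a mean of at least 0.5 FPKM, and called beyond 0.5 in either direction. Tests on counts or values per mouse had been planned for the case that the tables held them. As they hold 1 value per group, no test was made, and the members are described by counts and medians beside the same over all genes. The strand of an entry was inferred from the order of identifiers within its chromosome. Genes given with all 6 values are those with a mean of at least 5 FPKM, those called in a vector, the 3 highest and 3 lowest changes per vector, and the transmitter genes; single results of some genes are not reported here. From the 16 other lists (165 genes, 158 with an entry), at most 3 genes per vector with the largest change were named, with Chat added. The members and lists were chosen with earlier results of these data known. Promoter windows came from RefSeq (36 of 52 members). The calculations were tested on simulated data. Alternatives were the constant added, the minimum level, the entry used per name, the centring, the limit for a call and the genes in the ratio. Python 3.11.15, pandas 2.3.3, numpy 2.4.6 and matplotlib 3.10.9 were used.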

Additional observations from a re-analysis of the deposited data

How the results depend on the processing

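The tables hold 1 FPKM value per group, so neither the spread between mice nor the depth limits could be assessed, and leaving out each replicate in turn was not run. No paired analysis was possible because the values carry no replicate numbers. Of 186 values recomputed under an alternative, 156 stayed close to the value reported, 29 did not and 1 changed sign. Close meant within 0.1 on the log2 scale for medians and ratios, within 1.5 times for counts, and still beyond 0.5 in the same direction for single genes. Single genes that met this could move by more, as Glrb with HDAC4 3SA did from -1.04 to -0.74 with the entries of a name summed and -0.80 with the neuron markers as the centre. The count of members lower with HDAC4 3SA than with LacZ, 46 of 50, was 46 or 47 under the 3 alternatives run. Centring on the neuron markers, with medians of 0.02 with LacZ and -0.24 with HDAC4 3SA, was not among these 3. How far the count depends on that centring was not tested. The median of inhibitory less that of excitatory genes with HDAC4 wt was -0.070, and it was -0.040 with 1 FPKM added and -0.043 with the entries of a name summed. The number of members beyond 0.5 with LacZ was 1 in place of 0 with 0.01 FPKM added, and 7 lay beyond 0.25, against 15.6% of all genes. With HDAC4 wt it was 1 in place of 2 with 1 FPKM added, with a minimum of 2 FPKM, with the entries of a name summed and with entries on the annotated strand, and 12 lay beyond 0.25, against 22.2% of all genes. With HDAC4 3SA it was 5 in place of 8 with 1 FPKM added, which shrinks changes at low levels, and 3 when centred on the neuron markers, which moved the median change from -0.31 to -0.071, and 35 lay beyond 0.25, against 31.2% of all genes. The log2 difference of the inhibitory over excitatory ratio between CFA and saline was -0.11 in place of -0.23 with LacZ, -0.014 in place of -0.18 with HDAC4 wt and 0.018 in place of -0.14 with HDAC4 3SA without Glrb and Grin1 (-0.017 with Gabra3 also on its annotated strand), and -0.072, -0.0067 and -0.020 with entries on the annotated strand. For ionotropic receptors only it was -0.27 with HDAC4 3SA. Among single genes, Grin3b was at 0.47 with HDAC4 wt and 0.35 with HDAC4 3SA with 1 FPKM added, and Glra4 and Grin2b at -0.42 and -0.46 with HDAC4 3SA. With the neuron markers as the centre, Gad1 was at -0.27, Gabra5 at -0.30, Grin2a and Grin2b at -0.35 and Grm5 at -0.33 with HDAC4 3SA. Entries on the annotated strand and the calculation without Grin1os were chosen after seeing the data, and other causes of these shifts were not tested.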
